A study of Mus musculus with 20 samples.

Results

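Skeletal muscle releases peptides, cytokines and matrix proteins, and 10 genes for such factors were followed here: Ostn (musclin), Npnt (nephronectin), Lgi1, Il15, Il6, Fgf21, Fndc5, Metrnl, Bdnf and Sparc. They were chosen from earlier results of these arrays, so their own changes are given as a description. Each was read from the brightest probe set that carried its symbol alone, and 9 of the 10 were measured among 19938 genes, while Fndc5 was not analysed here. Each measured member had 1 probe set. The tissue was gastrocnemius, a calf muscle, of adult male C57BL/6 mice, with 1 Affymetrix Gene 1.0 ST array per sample. NCoR1-MKO mice lack the nuclear receptor corepressor NCoR1 in muscle and had 5 arrays, against 5 arrays of control mice called CON, whose alleles are not given in the sources used here. PGC-1alpha-mTg mice carry a muscle transgene for the coactivator PGC-1alpha and had 5 arrays, against 5 arrays of wild-type (WT) mice. The Cre line and the promoter of the transgene are not given in the sources used here either.

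NCoR1 represses genes with nuclear receptors, and PGC-1alpha activates many genes of oxidative metabolism with partners such as the estrogen-related receptor ERRalpha. Factors secreted by muscle include messengers that reach other organs, local cytokines, and proteins laid down in the matrix around the fibres. Musclin resembles natriuretic peptides and binds their clearance receptor NPR3. Interleukin-15 is presented to lymphoid cells by its receptor chain IL15RA, and nephronectin is a matrix ligand of integrin alpha8 beta1. LGI1 is best known from the brain, where it binds ADAM22 and ADAM23.

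All values are on the log2 scale of RMA. Their quantiles differed more between the cohorts, each a model with its own controls, than within them. Levels are therefore not compared between CON and WT, and they are not compared between genes either. A change is the mean of the model minus the mean of its own controls. A gene was called at an adjusted p under 0.05 from limma, with Benjamini-Hochberg adjustment over the 19938 genes. The labels do not state that arrays came from separate mice, so a p-value here reflects the spread among the arrays at hand, and some of that spread may be technical. Array medians were 6.05 to 6.08 in NCoR1-MKO, 6.03 to 6.07 in CON, 5.87 to 5.91 in PGC-1alpha-mTg and 5.84 to 5.88 in WT. Array PGC-1alpha-mTg 5 had the lowest mean correlation with its own group, 0.994. Ppargc1a, the targeted gene, averaged 11.42 ± 0.08 in PGC-1alpha-mTg and 9.59 ± 0.14 in WT (SD, n = 5 each), and Ncor1 is not analysed here. The 8 muscle fibre markers, such as Acta1, Ckm and Myh4, were bright on all 20 arrays, with array means of 13.55 to 13.61 in NCoR1-MKO, 13.53 to 13.57 in CON, 13.06 to 13.08 in PGC-1alpha-mTg and 13.00 to 13.06 in WT.

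Promoter windows were taken for Npnt and Lgi1, which were lower together in both models. The windows come from RefSeq (GRCm38.p6), run from 250 bases before to 50 after an annotated start, and are written 5′ to 3′ on the gene's strand. Capitals mark E boxes, the CANNTG letters that myogenic and other bHLH factors bind. The first Npnt start lies at chr3:132950242-132950541 on the minus strand, a second at chr3:132949765-132950064 on the minus strand, and the Lgi1 start at chr19:38264437-38264736 on the plus strand.
Npnt, upstream start: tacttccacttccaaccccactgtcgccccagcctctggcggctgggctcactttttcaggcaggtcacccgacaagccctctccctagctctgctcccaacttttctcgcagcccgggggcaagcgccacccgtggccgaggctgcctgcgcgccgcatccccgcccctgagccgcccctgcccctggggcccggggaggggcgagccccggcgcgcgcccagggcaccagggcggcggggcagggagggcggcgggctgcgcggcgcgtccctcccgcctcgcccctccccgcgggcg
Npnt, downstream start: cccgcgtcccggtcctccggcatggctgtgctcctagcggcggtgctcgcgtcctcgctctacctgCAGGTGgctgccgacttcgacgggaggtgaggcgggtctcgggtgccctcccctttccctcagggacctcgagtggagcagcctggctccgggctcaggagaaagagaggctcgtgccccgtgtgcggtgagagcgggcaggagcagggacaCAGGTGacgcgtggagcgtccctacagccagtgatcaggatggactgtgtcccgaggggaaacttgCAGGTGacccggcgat
Lgi1: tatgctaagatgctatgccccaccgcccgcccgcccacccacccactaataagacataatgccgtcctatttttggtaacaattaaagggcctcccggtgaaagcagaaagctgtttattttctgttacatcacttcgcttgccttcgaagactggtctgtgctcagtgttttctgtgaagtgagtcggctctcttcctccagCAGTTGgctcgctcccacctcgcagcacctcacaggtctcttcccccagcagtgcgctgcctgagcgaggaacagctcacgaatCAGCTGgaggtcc

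The upstream Npnt window held no E box. The downstream Npnt window held 3, all with the letters CAGGTG, at positions -184, -32 and 34 from the start. The Lgi1 window held CAGTTG at -47 and CAGCTG at 37. An E box was present in 72.3 percent of 32851 mouse windows of this length, read on both strands. In 15 windows of 8 members, which include Fndc5, neither the ERR element TNAAGGTCA nor the FoxO letters GTAAACA were found, on either strand. Of all windows, 1.28 percent held the ERR element and 3.65 percent held the FoxO letters. The TATA letters TATAAA, in 13.6 percent of all windows, occurred in Fgf21 alone, at -28. Ostn and Il15 were not among these members. A match is a description of letters, and a missing match says only that the letters are not in that window.

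Ostn, Npnt and Lgi1 were lower in both models than in their own controls, and Il15 was higher in both. The sizes ran from 1.85-fold to 3.36-fold. The other 5 measured members, Il6, Fgf21, Metrnl, Bdnf and Sparc, were not called in either comparison. In NCoR1-MKO against CON, 4 of 9 members were called, 1 higher and 3 lower, where 2.63 percent of all genes were called, 1.31 percent higher and 1.32 percent lower. In PGC-1alpha-mTg against WT, 4 of 9 were called, 1 higher and 3 lower, where 28.0 percent of all genes were called, 11.9 percent higher and 16.1 percent lower. The same comparisons chose the members, so nothing is read from these counts. The median change of the 9 was -0.03 in NCoR1-MKO, with 0.00 over all genes, and 0.01 in PGC-1alpha-mTg, with 0.02 over all genes. The arrays are of whole muscle, in which fewer cells of a type and less RNA per cell cannot be told apart.

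**Figure D1:**
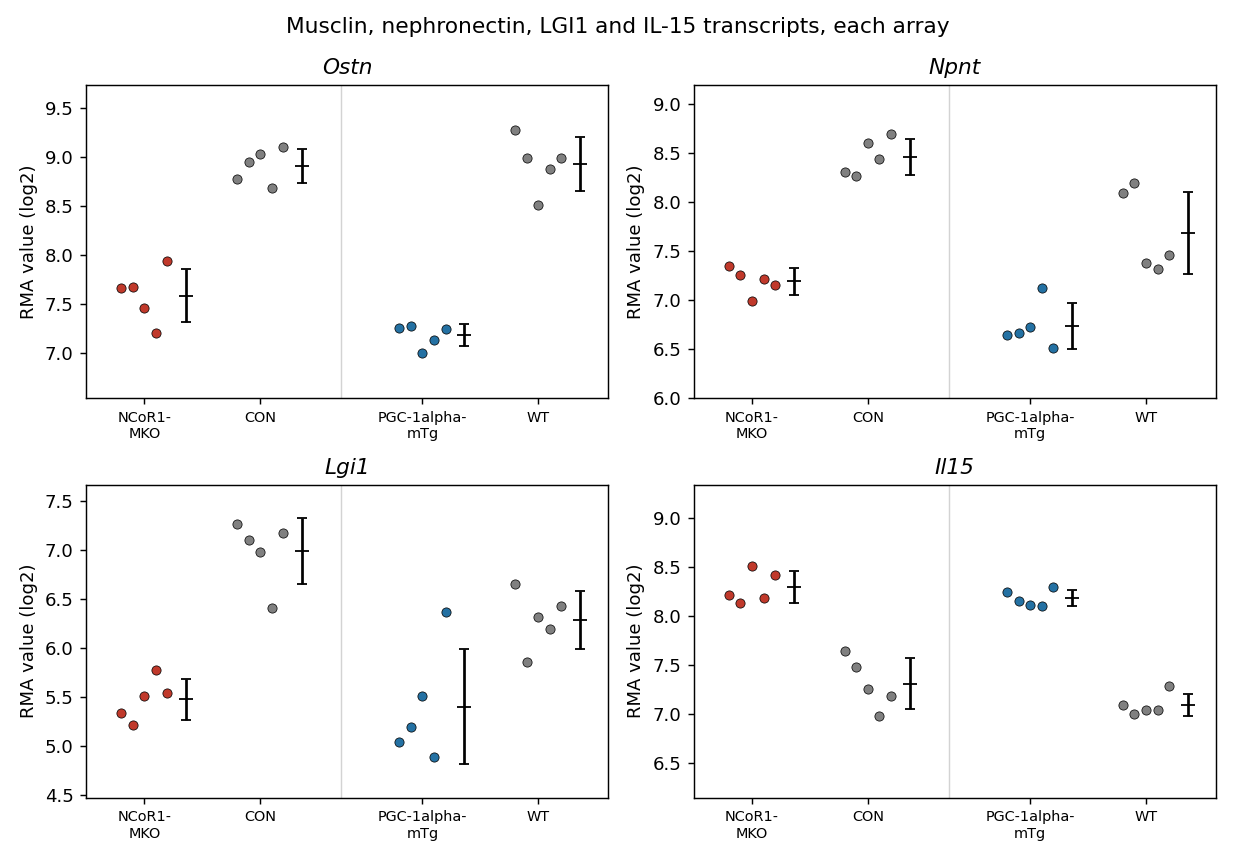
RMA values (log2, y axis) of Ostn, Npnt, Lgi1 and Il15 on each array, by group (x axis); points are arrays 1 to 5 from left to right, and bars are the mean ± SD of 5 arrays. The model arrays of Ostn, Npnt and Lgi1 lie below those of their controls, apart from the Lgi1 value of 6.36 on PGC-1alpha-mTg 5, and those of Il15 lie above.

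Ostn encodes musclin, a peptide made chiefly by muscle and bone and known to respond to feeding, insulin and exercise. Its values on arrays 1 to 5 were 7.66, 7.68, 7.45, 7.20 and 7.94 in NCoR1-MKO, against 8.78, 8.96, 9.03, 8.69 and 9.10 in CON. The groups did not overlap: the highest NCoR1-MKO array was lower than every CON array. Ostn averaged 7.59 ± 0.28 in NCoR1-MKO and 8.91 ± 0.17 in CON (SD, n = 5 each), a change of -1.32 ± 0.12 (SE), or 2.50-fold lower. In the transgenic cohort the values were 7.26, 7.28, 7.00, 7.14 and 7.24 in PGC-1alpha-mTg, against 9.28, 8.99, 8.51, 8.88 and 9.00 in WT. The PGC-1alpha-mTg arrays lay close together and far below the WT arrays, of which WT 3 was the lowest. The change was -1.75 ± 0.12, or 3.36-fold lower, with means of 7.18 ± 0.12 in PGC-1alpha-mTg and 8.93 ± 0.28 in WT. Ordered by change among all 19938 genes, Ostn stood at place 6 from the lowest in both comparisons.

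Npnt encodes nephronectin, an extracellular matrix protein with EGF-like repeats that binds integrins. On arrays 1 to 5 it read 7.35, 7.25, 6.98, 7.21 and 7.15 in NCoR1-MKO, against 8.30, 8.27, 8.60, 8.44 and 8.69 in CON. No NCoR1-MKO array came near the CON arrays. The change was -1.27 ± 0.15, or 2.41-fold lower, with means of 7.19 ± 0.14 in NCoR1-MKO and 8.46 ± 0.18 in CON. In the other cohort Npnt read 6.64, 6.66, 6.72, 7.12 and 6.51 in PGC-1alpha-mTg, against 8.09, 8.19, 7.37, 7.32 and 7.46 in WT. The groups did not overlap, but the WT arrays split: WT 1 and WT 2 were high and the other WT arrays were closer to the transgenic ones. The SD of Npnt in WT was 0.42, where the 90th percentile of the SD over all genes in WT was 0.142. The change was -0.95 ± 0.15, or 1.94-fold lower, with means of 6.73 ± 0.23 in PGC-1alpha-mTg and 7.68 ± 0.42 in WT. Npnt stood at place 8 from the lowest change in NCoR1-MKO and at place 54 in PGC-1alpha-mTg.

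Lgi1 encodes a secreted leucine-rich repeat protein that is known mainly as a ligand at neuronal synapses. On arrays 1 to 5 it read 5.33, 5.21, 5.50, 5.77 and 5.53 in NCoR1-MKO, against 7.27, 7.10, 6.98, 6.41 and 7.17 in CON. The groups did not overlap, and CON 4 was the lowest of the controls. The change was -1.52 ± 0.21, or 2.86-fold lower, with means of 5.47 ± 0.21 in NCoR1-MKO and 6.99 ± 0.34 in CON. In the other cohort Lgi1 read 5.03, 5.19, 5.51, 4.88 and 6.36 in PGC-1alpha-mTg, against 6.65, 5.85, 6.32, 6.19 and 6.43 in WT. These groups overlapped through PGC-1alpha-mTg 5 alone, which was within the WT range while the other transgenic arrays were below it. The change was -0.89 ± 0.21, or 1.85-fold lower, with means of 5.40 ± 0.59 in PGC-1alpha-mTg and 6.29 ± 0.30 in WT. Without PGC-1alpha-mTg 5 it was -1.13. Lgi1 stood at place 3 from the lowest change in NCoR1-MKO and at place 65 in PGC-1alpha-mTg.

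Il15 encodes a cytokine that supports natural killer cells and memory T cells and is abundant as a transcript in muscle. It was the member that was higher in the models. On arrays 1 to 5 it read 8.22, 8.13, 8.51, 8.19 and 8.42 in NCoR1-MKO, against 7.65, 7.48, 7.26, 6.98 and 7.18 in CON. Every NCoR1-MKO array was above every CON array, and the CON arrays were the more spread. The change was 0.98 ± 0.10, or 1.98-fold higher, with means of 8.29 ± 0.16 in NCoR1-MKO and 7.31 ± 0.26 in CON. In the other cohort Il15 read 8.24, 8.16, 8.12, 8.10 and 8.30 in PGC-1alpha-mTg, against 7.09, 7.00, 7.04, 7.04 and 7.28 in WT. Both groups were tight and far apart. The change was 1.09 ± 0.10, or 2.13-fold higher, with means of 8.18 ± 0.08 in PGC-1alpha-mTg and 7.09 ± 0.11 in WT. Il15 stood at place 3 from the highest change in NCoR1-MKO and at place 34 in PGC-1alpha-mTg.

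The arrays of the compared groups did not overlap for 4 of 9 members in NCoR1-MKO against CON, where 4.17 percent of all genes had such groups. They did not overlap for 3 of 9 in PGC-1alpha-mTg against WT, where the share over all genes was 19.9 percent. These counts rest on the values that chose the members and are given without a reading.

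Il6 encodes a cytokine that contracting muscle is known to release. Its values ran from 3.49 to 3.65 in NCoR1-MKO and from 3.50 to 3.66 in CON, and from 3.51 to 3.67 in PGC-1alpha-mTg and from 3.48 to 3.63 in WT. These lie near the low end of the values on the arrays, which started at 2.66. The change was 0.01 in NCoR1-MKO (95% interval -0.08 to 0.10) and -0.02 in PGC-1alpha-mTg (95% interval -0.12 to 0.07).

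Fgf21 encodes an endocrine fibroblast growth factor that muscle is known to release under mitochondrial stress. Its values ran from 4.94 to 5.30 in NCoR1-MKO and from 4.95 to 5.19 in CON. They ran from 4.92 to 5.58 in PGC-1alpha-mTg and from 5.06 to 5.34 in WT. In both cohorts the groups lay across each other, with PGC-1alpha-mTg 2 the highest array and PGC-1alpha-mTg 5 the lowest. The change was 0.02 in NCoR1-MKO (95% interval -0.17 to 0.21) and 0.05 in PGC-1alpha-mTg (95% interval -0.15 to 0.24).

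Metrnl encodes meteorin-like, a circulating factor described in exercise and in adipose tissue. It ran from 6.28 to 6.39 in NCoR1-MKO and from 6.13 to 6.48 in CON. It ran from 6.37 to 6.54 in PGC-1alpha-mTg and from 6.35 to 6.55 in WT. In both cohorts the model arrays lay within the range of their controls, which was much the wider one in CON. The change was -0.03 in NCoR1-MKO (95% interval -0.14 to 0.09) and 0.01 in PGC-1alpha-mTg (95% interval -0.11 to 0.12).

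Bdnf encodes a neurotrophin that acts through the receptor TrkB (Ntrk2). On arrays 1 to 5 it read 5.39, 5.54, 5.67, 5.39 and 5.26 in PGC-1alpha-mTg, against 5.32, 5.31, 5.25, 5.39 and 5.32 in WT. PGC-1alpha-mTg 2 and PGC-1alpha-mTg 3 were clearly above all WT arrays. PGC-1alpha-mTg 1, at 5.395, was barely above the highest, WT 4 at 5.394, and the others were within the WT range. The change was 0.14 ± 0.06 (95% interval 0.01 to 0.26) and was not called. It was 0.18 and was called when PGC-1alpha-mTg 5 was left out. In NCoR1-MKO the values ran from 4.95 to 5.11, against 4.98 to 5.16 in CON, a change of -0.04 (95% interval -0.17 to 0.09).

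Sparc encodes osteonectin, a matricellular protein that binds collagen and is made in abundance by connective tissue cells. On arrays 1 to 5 it read 11.68, 11.82, 11.84, 11.99 and 12.04 in NCoR1-MKO, against 11.42, 11.70, 11.55, 11.98 and 11.93 in CON. The groups overlapped over most of their range. The change was 0.16 ± 0.09 (95% interval -0.03 to 0.34) and was not called. In PGC-1alpha-mTg Sparc ran from 11.52 to 11.62, against 11.31 to 11.67 in WT, a change of 0.04 (95% interval -0.14 to 0.23). Il6, Fgf21 and Bdnf were among the dimmest 40 percent of genes.

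**Figure D2:**
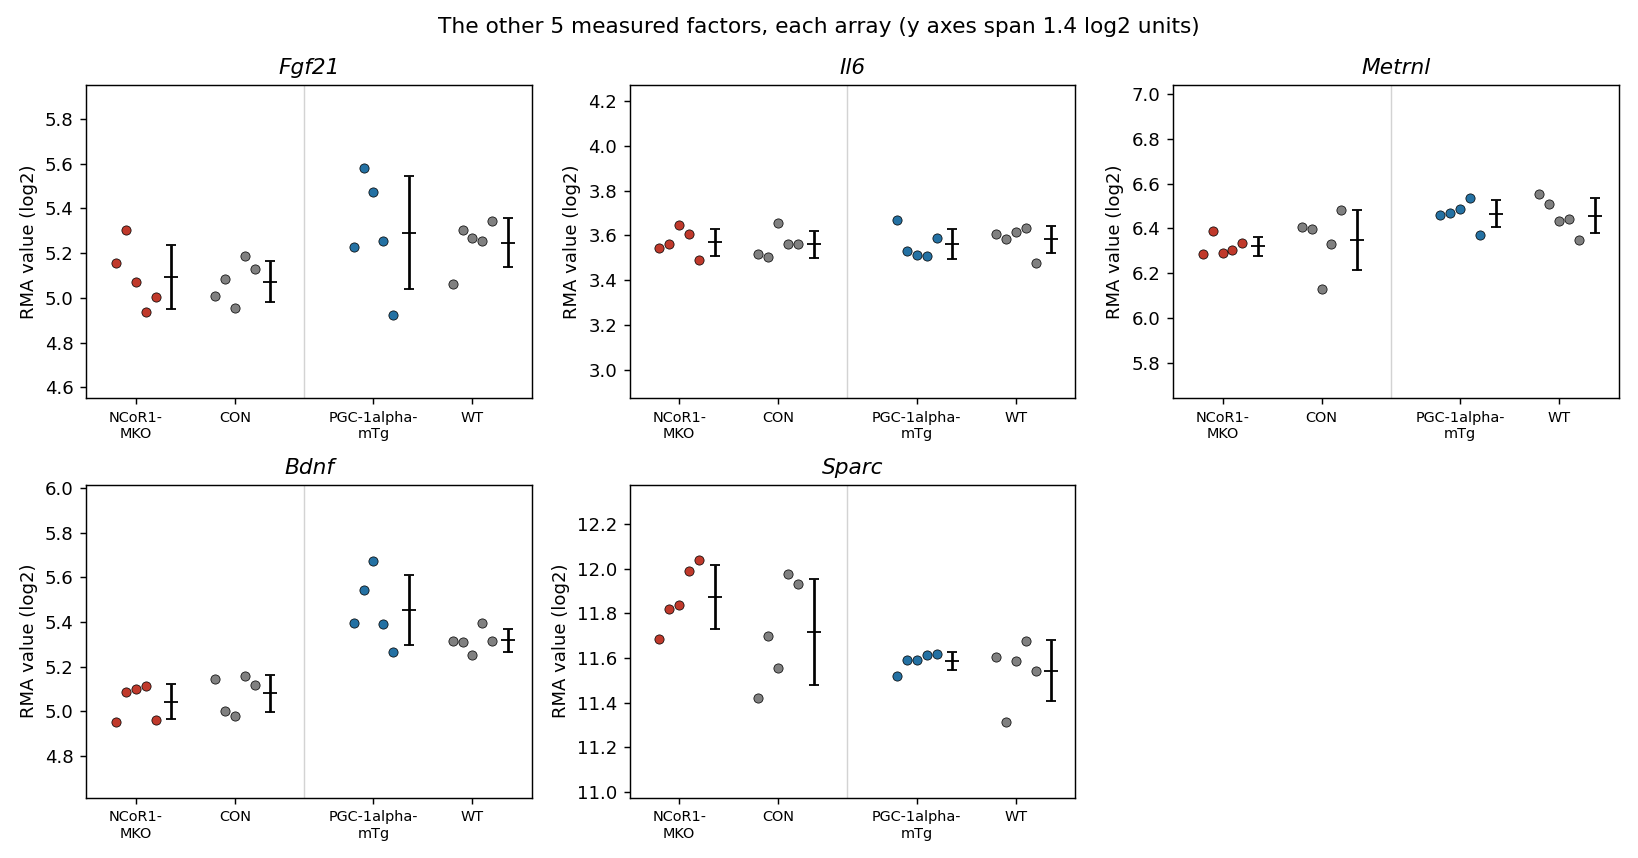
RMA values (log2, y axis, each spanning 1.4 units) of Fgf21, Il6, Metrnl, Bdnf and Sparc on each array, by group (x axis); points are arrays 1 to 5 from left to right, and bars are the mean ± SD of 5 arrays. Model and control arrays lie across each other in each panel, with Bdnf on PGC-1alpha-mTg 2 and 3, at 5.54 and 5.67, furthest above the WT arrays.

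The change in NCoR1-MKO minus the change in PGC-1alpha-mTg was called for 0 of 9 members with limma, and 2 of 9 had an unadjusted p under 0.05, Ostn and Lgi1. Over all genes 15.2 percent of differences were called, and the share at an unadjusted p under 0.05 is not given here. The same comparisons chose the members, so nothing is read from these counts. For Ostn the difference was 0.43 ± 0.18 (95% interval 0.06 to 0.79), the sign of a smaller drop in NCoR1-MKO. For Lgi1 it was -0.62 ± 0.30 (95% interval -1.25 to -0.00), the sign of a larger drop in NCoR1-MKO, and -0.38 without PGC-1alpha-mTg 5. The difference was -0.32 ± 0.21 for Npnt (95% interval -0.75 to 0.11). It was -0.11 ± 0.14 for Il15 (95% interval -0.39 to 0.17), so differences between -0.39 and 0.17 log2 units in Il15 are within the error.

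**Figure D3:**
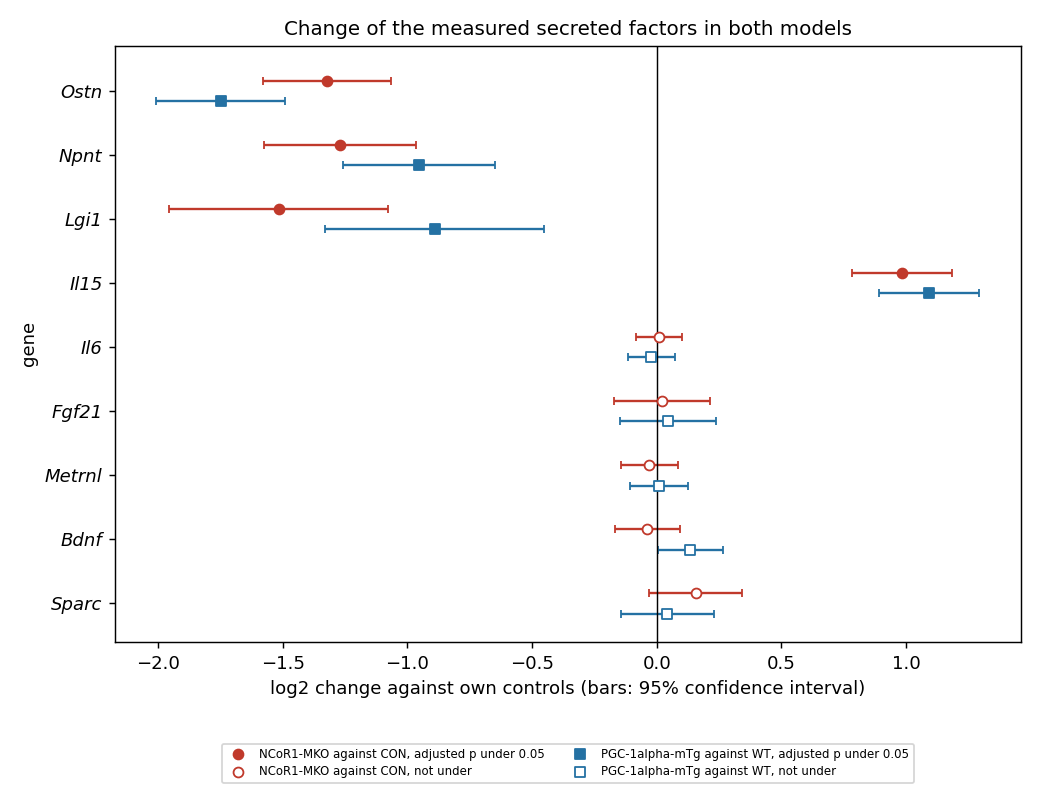
Log2 change against own controls (x axis) of the 9 measured members, with 95% confidence intervals as bars; circles are NCoR1-MKO against CON, squares are PGC-1alpha-mTg against WT, and filled symbols mark an adjusted p under 0.05. Ostn, Npnt and Lgi1 lie left of 0 in both comparisons, between -1.75 and -0.89, Il15 lies right of 0 at 0.98 and 1.09, and the other members lie near 0.

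Members were set beside each other by the mean absolute difference of their values over the 20 arrays, each value taken as a deviation from the mean of its own control arrays. Ostn and Npnt were 0.335 log2 units apart by this measure, Npnt and Lgi1 0.365, and Ostn and Lgi1 0.415. Il15 was at least 1.20 away from each of these 3. The measure is a description, with no test.

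By the same measure the gene closest to Ostn was Pld5, a member of the phospholipase D family, at 0.249. Pld5 changed by -1.15 ± 0.09 in NCoR1-MKO and by -1.38 ± 0.09 in PGC-1alpha-mTg. It was followed by 1700001O22Rik at 0.263 and Bex1 at 0.277. Bex1 changed by -0.59 ± 0.14 in NCoR1-MKO and by -1.72 ± 0.14 in PGC-1alpha-mTg. Pld5 was also the closest gene to Lgi1, at 0.329, before 2610002M06Rik at 0.341 and Myl2, the regulatory light chain of slow and cardiac muscle, at 0.351. Myl2 changed by -0.91 ± 0.18 in NCoR1-MKO and by -0.81 ± 0.18 in PGC-1alpha-mTg.

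The genes closest to Npnt were Casp12 at 0.243, Mettl21c at 0.260 and Atp13a5 at 0.269. Casp12 changed by -0.63 ± 0.15 in NCoR1-MKO and by -0.90 ± 0.15 in PGC-1alpha-mTg. Mettl21c changed by -0.71 ± 0.20 in NCoR1-MKO and by -1.04 ± 0.20 in PGC-1alpha-mTg. Atp13a5 changed by -0.97 ± 0.10 in NCoR1-MKO and by -0.76 ± 0.10 in PGC-1alpha-mTg. All 3 fell less in NCoR1-MKO than Npnt itself, which changed by -1.27 ± 0.15 there. The genes closest to Il15 were Acadvl, an acyl-CoA dehydrogenase of fatty acid oxidation, at 0.244, Lrg1 at 0.252 and Mcrip2 at 0.256. Acadvl changed by 0.34 ± 0.05 in NCoR1-MKO and by 1.19 ± 0.05 in PGC-1alpha-mTg. Its change in NCoR1-MKO was thus a smaller one than that of Il15, 0.98 ± 0.10, and its change in PGC-1alpha-mTg was close to the 1.09 ± 0.10 of Il15.

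Receptors and binding partners of the members were read from a list of 24 genes, of which 23 were measured. In NCoR1-MKO, 0 rose and 1 fell, or 4.35 percent called beside 2.63 percent of all genes. In PGC-1alpha-mTg, 5 rose and 2 fell, or 30.4 percent beside 28.0 percent of all genes. The median change of the list was -0.00 in NCoR1-MKO and 0.02 in PGC-1alpha-mTg, beside 0.00 and 0.02 over all genes. For musclin, the clearance receptor Npr3 changed by -0.12 ± 0.07 in NCoR1-MKO and was not called, and in PGC-1alpha-mTg it rose by 0.26 ± 0.07 (adjusted p = 0.00408). The difference between these changes was called, at -0.38 (adjusted p = 0.00697). Npr1, the receptor of atrial natriuretic peptide, rose by 0.25 ± 0.05 in PGC-1alpha-mTg. Npr2, the receptor of C-type natriuretic peptide, rose by 0.14 ± 0.05, a call that was kept in 19 of 27 alternatives, with changes of 0.11 to 0.18 and adjusted p up to 0.0916. It was lost on leaving out WT 3, WT 4, WT 5, PGC-1alpha-mTg 4 or PGC-1alpha-mTg 5, with arrays centred on their medians, in the fit to the 10 arrays compared and with a replicate block.

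For interleukin-15, the presenting receptor chain Il15ra read 8.38, 8.59, 8.45, 8.59 and 8.75 in PGC-1alpha-mTg, against 8.06, 8.17, 8.10, 8.09 and 8.27 in WT. The groups did not overlap, and Il15ra rose by 0.41 ± 0.08 (adjusted p = 0.000165). In NCoR1-MKO it changed by -0.14 ± 0.08 and was not called. The difference was called, at -0.55 ± 0.11 (adjusted p = 0.000692), whereas the difference for Il15 itself was not. Il2rb, a signalling chain for interleukin-15, was not called in either comparison, but was called in PGC-1alpha-mTg without PGC-1alpha-mTg 5.

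For nephronectin, the chains of its integrin, Itga8 and Itgb1, were not called in either comparison. Itgb5 encodes a chain of the integrin alphaV beta5, which has been described as a receptor of irisin, the peptide cleaved from the product of Fndc5. It averaged 9.97 ± 0.04 in NCoR1-MKO and 10.32 ± 0.06 in CON (SD, n = 5 each). It averaged 9.46 ± 0.13 in PGC-1alpha-mTg and 9.84 ± 0.06 in WT. All arrays of each model were below those of their controls. Itgb5 fell by 0.35 ± 0.05 in NCoR1-MKO (adjusted p = 0.000312) and fell by 0.38 ± 0.05 in PGC-1alpha-mTg (adjusted p = 5.17e-06), and it was the gene of the receptor list that was called in both. Its partner chain Itgav was not called in either comparison. For LGI1, Adam11, Adam22 and Adam23 were not called in either comparison.

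Sort1 encodes sortilin, a sorting receptor that binds the precursor of BDNF. It read 8.32, 8.35, 8.15, 8.50 and 8.54 in PGC-1alpha-mTg, against 9.38, 9.46, 9.53, 9.37 and 9.46 in WT. The groups were far apart, and Sort1 fell by 1.07 ± 0.06 (adjusted p = 2.01e-11). In NCoR1-MKO it changed by -0.00 ± 0.06, and the difference was called, at 1.06 ± 0.09 (adjusted p = 3.21e-08). The other BDNF receptors, Ntrk2 and Ngfr, were not called in either comparison, but Ntrk2 was called in PGC-1alpha-mTg with quantile normalization. Kit, described as a receptor of meteorin-like, rose by 0.33 ± 0.09 in PGC-1alpha-mTg and changed by 0.28 ± 0.09 in NCoR1-MKO, where its adjusted p was 0.125. The interleukin-6 receptor chain Il6ra changed by -0.33 ± 0.09 in NCoR1-MKO and was not called (adjusted p = 0.0517). This was kept in 21 of 27 alternatives, with changes of -0.38 to -0.26. Il6ra was called with quantile normalization, without the dimmest genes and with a trend and robust eBayes. It was also called without NCoR1-MKO 5, WT 5 or PGC-1alpha-mTg 5. The partner of Il6ra, Il6st, was not called in either comparison. For FGF21, the co-receptor Klb was not called, and the receptor Fgfr4 differed between the models by 0.32 ± 0.09 (adjusted p = 0.0197) without a call in either. Fgfr4 was called in NCoR1-MKO without CON 4.

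**Figure D4:**
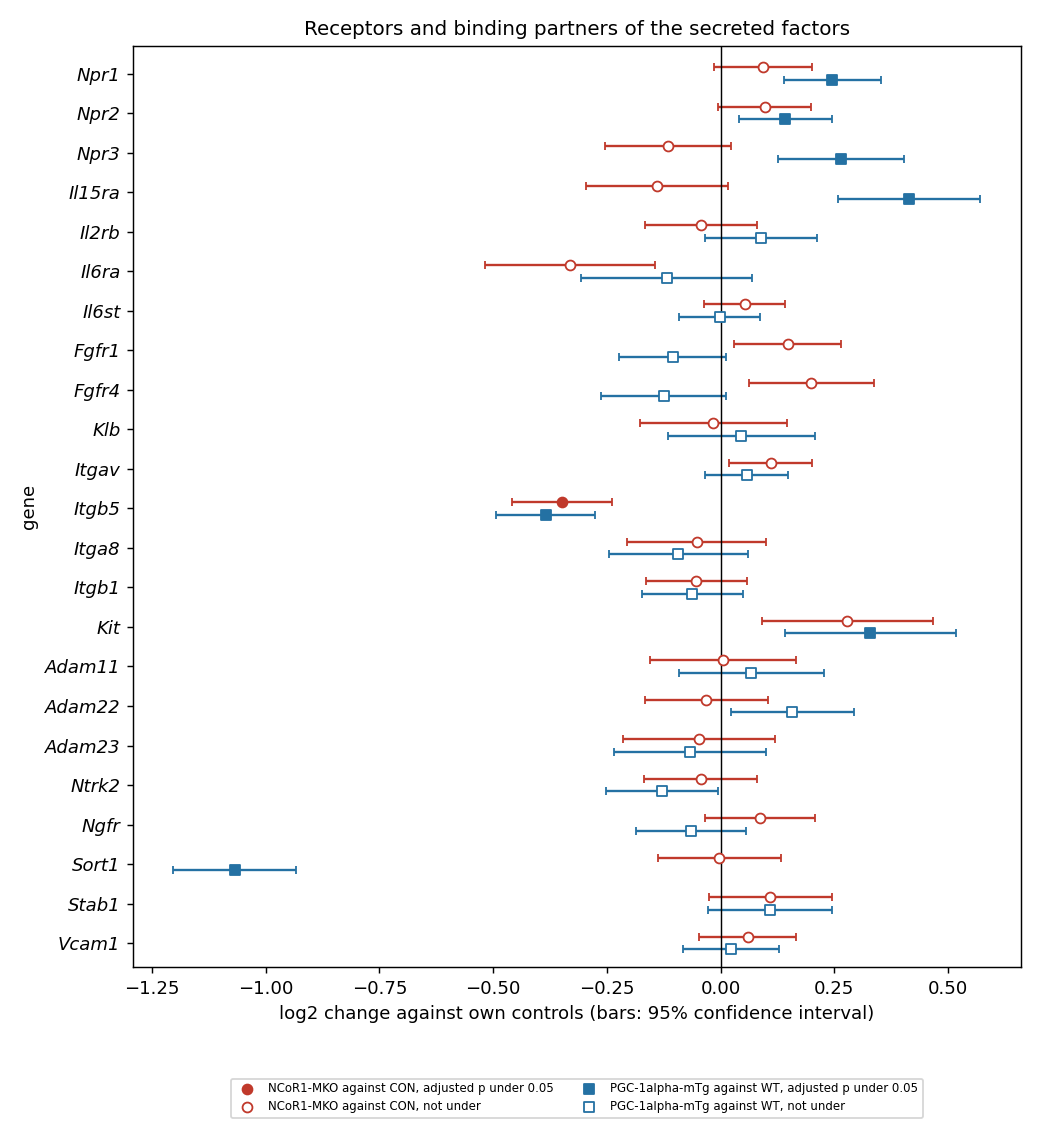
Log2 change against own controls (x axis) of 23 receptors and binding partners, with 95% confidence intervals as bars; circles are NCoR1-MKO against CON, squares are PGC-1alpha-mTg against WT, and filled symbols mark an adjusted p under 0.05. Itgb5 is filled in both comparisons, left of 0, and Sort1 lies at -1.07 in PGC-1alpha-mTg and at 0 in NCoR1-MKO.

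Relatives of the members by family, such as other fibroblast growth factors, LGI proteins and SPARC-like proteins, were read from 40 genes, of which 37 were measured. In NCoR1-MKO, 0 rose and 1 fell, so that 1 of 37 was called, beside 2.63 percent of all genes. In PGC-1alpha-mTg, 5 rose and 6 fell, or 29.7 percent beside 28.0 percent of all genes. The list medians were 0.00 in NCoR1-MKO and 0.01 in PGC-1alpha-mTg. Smoc2, a matricellular relative of Sparc, fell by 0.30 ± 0.06 in NCoR1-MKO (adjusted p = 0.00673) and fell by 0.43 ± 0.06 in PGC-1alpha-mTg (adjusted p = 7.27e-06). Sparc itself was not called in either comparison. Among growth factors related to Fgf21, Fgf9 rose by 0.83 ± 0.07 and Fgf1 rose by 0.53 ± 0.08 in PGC-1alpha-mTg, while Fgf2 fell by 0.59 ± 0.08 and Fgf7 fell by 0.51 ± 0.09. None of these 4 was called in NCoR1-MKO, and the difference between the models was called for each.

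Other factors that muscle is known to secrete were read from 50 genes, of which 48 were measured. In NCoR1-MKO, 0 rose and 3 fell, or 6.25 percent called beside 2.63 percent of all genes. In PGC-1alpha-mTg, 8 rose and 9 fell, or 35.4 percent beside 28.0 percent of all genes. The list medians were 0.01 in NCoR1-MKO and -0.01 in PGC-1alpha-mTg. The 3 that fell in NCoR1-MKO, Mstn, Gdf11 and Tgfb2, also fell in PGC-1alpha-mTg. Mstn, which encodes the muscle growth inhibitor myostatin, read 9.83, 9.87, 9.77, 10.20 and 9.91 in NCoR1-MKO, against 10.40, 10.46, 10.82, 10.42 and 10.62 in CON. It read 8.72, 9.01, 8.80, 9.00 and 8.97 in PGC-1alpha-mTg, against 10.05, 10.17, 10.08, 10.09 and 10.25 in WT. In both cohorts the model arrays lay below all control arrays. Mstn fell by 0.63 ± 0.08 in NCoR1-MKO (adjusted p = 6.54e-05) and fell by 1.23 ± 0.08 in PGC-1alpha-mTg (adjusted p = 1.23e-10), and the difference was called, at 0.60 ± 0.12.

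Gdf11, a close relative of myostatin, fell by 0.48 ± 0.12 in NCoR1-MKO (adjusted p = 0.0299) and fell by 0.51 ± 0.12 in PGC-1alpha-mTg. Its call in NCoR1-MKO was kept in 20 of 27 alternatives, with changes of -0.55 to -0.39 and adjusted p up to 0.0959, and was lost on leaving out CON 3, CON 4, CON 5, NCoR1-MKO 3 or NCoR1-MKO 5. Tgfb2, a transforming growth factor, fell by 0.26 ± 0.07 in NCoR1-MKO (adjusted p = 0.042), and fell by 0.37 ± 0.07 in PGC-1alpha-mTg. The NCoR1-MKO call of Tgfb2 was kept in 13 of 27 alternatives, with changes of -0.31 to -0.20 and adjusted p up to 0.110. It was lost on leaving out any array of CON 2 to 5, NCoR1-MKO 2 to 5, WT 2 to 4 or PGC-1alpha-mTg 4. Vegfb, a vascular growth factor that acts through Flt1, read 11.16, 11.25, 11.27, 11.20 and 11.22 in PGC-1alpha-mTg, against 10.25, 10.23, 10.19, 10.21 and 10.26 in WT. The arrays within each group were nearly equal, and Vegfb rose by 0.99 ± 0.04, while it changed by 0.04 ± 0.04 in NCoR1-MKO. Apln, the peptide apelin, rose by 0.54 ± 0.08 in PGC-1alpha-mTg. Igf1, an anabolic growth factor, fell by 0.80 ± 0.12 there. Neither was called in NCoR1-MKO.

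**Figure D5:**
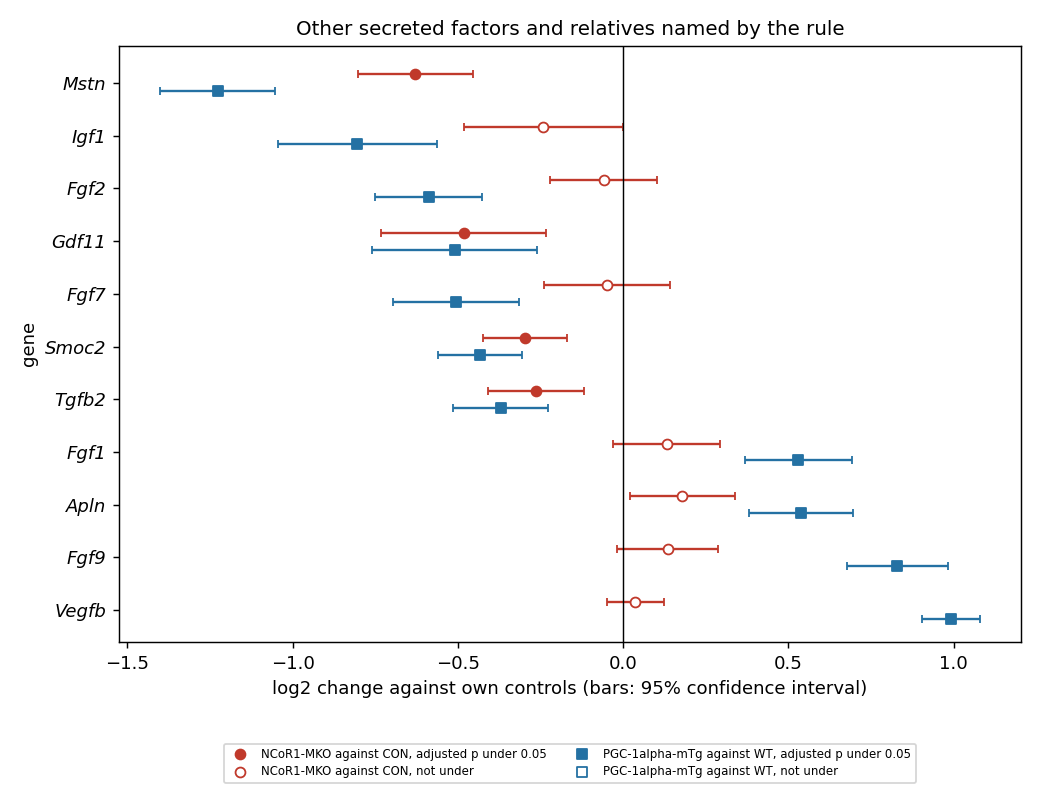
Log2 change against own controls (x axis) of 11 secreted factors named from the lists of relatives and of other factors, with 95% confidence intervals as bars; circles are NCoR1-MKO against CON, squares are PGC-1alpha-mTg against WT, and filled symbols mark an adjusted p under 0.05. Mstn, Gdf11, Smoc2 and Tgfb2 are filled left of 0 in both comparisons, and Vegfb lies at 0.99 in PGC-1alpha-mTg and at 0.04 in NCoR1-MKO.

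Regulators and processing enzymes known for the members, such as FoxO factors, nuclear receptors, PGC-1 coactivators and proprotein convertases, were read from 40 genes, of which 37 were measured. In NCoR1-MKO, 2 rose and 0 fell, or 5.41 percent called beside 2.63 percent of all genes. In PGC-1alpha-mTg, 7 rose and 7 fell, or 37.8 percent beside 28.0 percent of all genes. The list medians were 0.01 in both. Egr1, an immediate early gene, rose by 0.74 ± 0.19 in NCoR1-MKO (adjusted p = 0.0312), and in PGC-1alpha-mTg it rose by 0.63 ± 0.19 (adjusted p = 0.0127). The NCoR1-MKO call of Egr1 was kept in 20 of 27 alternatives, with changes of 0.63 to 0.86 and adjusted p up to 0.102, and was lost on leaving out CON 2, CON 3, CON 5, NCoR1-MKO 1, NCoR1-MKO 2 or NCoR1-MKO 3. Ppargc1b, the coactivator PGC-1beta, rose by 0.51 ± 0.12 in NCoR1-MKO (adjusted p = 0.0193), a call kept in 24 of 27 alternatives, with changes of 0.47 to 0.62 and adjusted p up to 0.0642. It was lost on leaving out CON 3, NCoR1-MKO 3 or NCoR1-MKO 4. Ppargc1b changed by -0.22 ± 0.12 in PGC-1alpha-mTg and was not called.

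In PGC-1alpha-mTg the transgene's own gene, Ppargc1a, rose by 1.83 ± 0.07, and it changed by -0.10 ± 0.07 in NCoR1-MKO. These are values of its brightest probe set. With the mean of its probe sets the rise in PGC-1alpha-mTg was 0.41 and was still called. Esrra, which encodes ERRalpha, rose by 0.66 ± 0.05 in PGC-1alpha-mTg and changed by 0.01 ± 0.05 in NCoR1-MKO. Ppara, a nuclear receptor of fatty acid metabolism, rose by 0.49 ± 0.12 in PGC-1alpha-mTg and changed by -0.36 ± 0.12 in NCoR1-MKO, where it was not called. Egr1 was the gene of this list that was called in both comparisons.

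Some markers of other cell types were called in PGC-1alpha-mTg against WT. Of all genes, 28.0 percent were called there, 11.9 percent higher and 16.1 percent lower. In PGC-1alpha-mTg, 7 of 8 endothelial markers rose, with array means of 8.96 to 9.13, against 8.55 to 8.79 in WT. Of 8 satellite cell markers 6 fell, with array means of 6.66 to 6.73 in PGC-1alpha-mTg, against 6.93 to 6.98 in WT. Of 8 fibroblast markers 4 fell, with array means of 8.81 to 9.00 in PGC-1alpha-mTg, against 9.01 to 9.25 in WT.

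In NCoR1-MKO, where 2.63 percent of all genes were called, 1 of 8 endothelial markers rose and 4 of 8 had an unadjusted p under 0.05. Their array means were 9.14 to 9.38, against 8.93 to 9.18 in CON. The median change of these 8 was 0.20, and 7 of 8 changes were above 0, beside 10113 of all 19938 genes. The share of all genes at an unadjusted p under 0.05 is not given here, so nothing is read from such counts of markers. Satellite cell markers had array means of 7.18 to 7.23 in NCoR1-MKO and 7.10 to 7.25 in CON, with 0 of 8 called by limma and 1 of 8 at an unadjusted p under 0.05. Fibroblast markers had array means of 9.26 to 9.62 in NCoR1-MKO and 9.22 to 9.56 in CON, with 0 of 8 called by limma and 1 of 8 at an unadjusted p under 0.05. The 6 measured T cell markers had array means of 5.20 to 5.31 in NCoR1-MKO and 5.41 to 5.52 in CON, with Cd28 alone called, at a change of -1.13. The median change of these 6 was 0.01, and those other than Cd28 changed by -0.01 to 0.06. The lower array means thus rest on Cd28. In PGC-1alpha-mTg the 6 T cell markers had array means of 5.46 to 5.70, against 5.30 to 5.44 in WT, with Cd28 and Cd3g called higher. Among the remaining lists, 2 of 8 smooth muscle and pericyte markers, 1 of 8 macrophage markers and 1 of 7 adipocyte markers rose in PGC-1alpha-mTg. Of 5 nerve and Schwann cell markers 1 fell there. In each of these 4 lists the share called was below the 28.0 percent of all genes. In NCoR1-MKO 0 markers of these 4 lists were called by limma, and 2 smooth muscle and pericyte markers had an unadjusted p under 0.05. Of the fibre markers, Mb and Myh1 rose and Pvalb fell in PGC-1alpha-mTg. The part of these cell types in the changes of Ostn, Npnt, Lgi1, Il15 and their partners was not tested.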

How the data were processed

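Gene expression of 20 gastrocnemius samples was measured on 1 array each. The deposited values are log2 values that the authors made with RMA, per the submitters' processing notes, where Partek is named too and versions are not. The values ran from 2.66 to 14.47, and their quantiles differed by up to 0.0630 within a cohort and by 0.169 to 0.228 between cohorts. No genome build is named in the labels or the file. An array has no sequencing depth, and the number of arrays limits the precision.

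Of 35556 probe sets, 21789 carried 1 gene symbol, 1621 several and 12146 none here. Of those with 1 symbol, 21698 matched the RefSeq table of GRCm38.p6 by Entrez number. For 999 genes with several probe sets the brightest over all arrays was kept, which left 19938 genes. A linear model of 4 group means was fitted per gene (all 20 arrays, R 4.3.3, limma 3.58.1, eBayes), with two-sided tests and Benjamini-Hochberg adjustment over all genes. Intervals are 95% intervals of that fit. The procedure was tested on simulated data. Figures were drawn with matplotlib 3.10.9.

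The members and lists were chosen with earlier results of these data known. Named were all members, up to 4 called genes with the largest change per list and comparison, partners of a member, the 3 genes closest in pattern to Ostn, Npnt, Lgi1 and Il15, markers where their list is described, and the targeted genes. Alternatives were quantile normalization across all arrays, median centring, a filter on the dimmest 40 percent of genes, averaged probe sets, a fit to the 10 arrays compared, a trend with robust eBayes, the replicate number as a block, and leaving out each array in turn.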

Additional observations from a re-analysis of the deposited data

Results flagged for a closer look

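Among the members, Sparc on PGC-1alpha-mTg 1 read 11.52 and stood apart from the other 4 arrays of its group, whose values were closer together, by Dixon's gap test for small groups. In all, 192 groups of 5 arrays were read for 48 genes, and 10 values stood apart in this way, where chance flags about 1 group in 20. Among partners of the members these were Adam11 on WT 3 at 5.88, Fgfr1 on WT 5 at 9.58, Il2rb on CON 4 at 5.19, Itgav on PGC-1alpha-mTg 4 at 9.03, Itgb1 on NCoR1-MKO 5 at 9.85 and on CON 5 at 9.81, and Kit on PGC-1alpha-mTg 1 at 6.48. Among other named genes they were Fgf1 on PGC-1alpha-mTg 5 at 8.86 and Ppargc1b on NCoR1-MKO 5 at 8.14.

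The change in NCoR1-MKO minus the change in PGC-1alpha-mTg passed the adjusted limma test for 17 of the 39 list genes named or read as partners, some of which were named because they were called, and for 0 of the 9 measured members. Over the 4 whole lists it passed for 33 of 145 genes, or 22.8 percent, beside 15.2 percent of all genes. The members were chosen from the 2 comparisons, so nothing is read from their count. Among partners the difference was -0.55 for Il15ra, -0.38 for Npr3, 1.06 for Sort1, 0.25 for Fgfr1 and 0.32 for Fgfr4. The Fgfr1 call was kept in 14 of 26 alternatives, with differences of 0.23 to 0.31 and adjusted p up to 0.0733. Among growth factors it was -0.40 for Fgf1, 0.53 for Fgf2, 0.46 for Fgf7, -0.69 for Fgf9, 0.56 for Igf1, 0.60 for Mstn, -0.95 for Vegfb and -0.36 for Apln. The Apln call was kept in 21 of 26 alternatives, with differences of -0.43 to -0.29 and adjusted p up to 0.0628. Among regulators it was -0.65 for Esrra, -0.84 for Ppara, -1.93 for Ppargc1a and 0.73 for Ppargc1b. Averaged over its probe sets, that of Ppargc1a was -0.52 and was still called.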

How the results depend on the processing

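All 711 alternative values of the 9 members' changes and differences lay within the SD between replicates of the reported value. Most alternatives leave a member's change as it is or drop an array, so they could hardly move it by more than that. Nothing is read from this count. No called change reversed its sign, while uncalled changes near 0 did, such as that of Fgf21 in NCoR1-MKO, from -0.03 to 0.06. Ostn, Npnt, Lgi1 and Il15 kept their calls in 27 of 27 alternatives in both comparisons. They were chosen from these comparisons, so no support is drawn from the kept calls. The difference for Ostn was called under the replicate block, without NCoR1-MKO 4 and without WT 3. Leaving out each array in turn gave 370 to 617 called genes in NCoR1-MKO (525 reported) and 4868 to 6544 in PGC-1alpha-mTg (5575 reported). For NCoR1-MKO, called receptors and partners numbered 1 to 2 when an array was left out, relatives 1 to 2, other secreted factors 1 to 4 and regulators 0 to 2. There were 0 regulators without CON 3 or NCoR1-MKO 3, and 1 without CON 2, NCoR1-MKO 1, NCoR1-MKO 2 or NCoR1-MKO 4. There was 1 other secreted factor without CON 3, CON 4, CON 5, NCoR1-MKO 3 or NCoR1-MKO 5. There were 2 receptors without CON 4, NCoR1-MKO 5, WT 5 or PGC-1alpha-mTg 5, and 2 relatives without WT 2. Quantile normalization gave 2 called receptors. Without the dimmest genes there were 2 called receptors and 2 relatives. A trend with robust eBayes gave 2 receptors, 2 relatives and 1 regulator, and the 10 arrays alone gave 1 other secreted factor. The cause was not tested. In PGC-1alpha-mTg the list counts stayed within 1.5 times those reported.

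The labels do not say whether the replicate numbers pair the samples. Deviations of same-numbered arrays correlated at -0.13 to 0.04 in NCoR1-MKO with CON and at -0.23 to 0.20 in PGC-1alpha-mTg with WT. Such correlations cannot settle whether samples were paired. With the replicate number as a block, 370 genes were called in NCoR1-MKO and 5318 in PGC-1alpha-mTg, and other secreted factors called in NCoR1-MKO numbered 1. Under the block, calls were lost for the differences of Apln, Fgfr1 and Fgfr4, for Gdf11 and Tgfb2 in NCoR1-MKO and for Npr2 in PGC-1alpha-mTg, and Ppara gained a call in NCoR1-MKO. The difference between the models could not be fitted from the 10 arrays of a comparison alone. With 5 arrays a group, and with Il6, Fgf21 and Bdnf among the dimmest genes, small changes in those may not have been detectable. The same holds for the dim partners Il2rb, Klb, Adam22 and Adam23.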
